A study of Homo sapiens with 9 samples.

Results

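The largest block of zinc finger genes in the human genome lies on chromosome 19, and here those genes were followed from the start to the end of single transcripts. The set holds every protein-coding gene of Gencode v44 on chromosome 19 that is named ZNF and a number, with or without 1 trailing letter. There are 246 such genes among 20033 protein-coding genes, called members below. The rule uses the annotation alone and no read. A read pair was counted for a gene when both of its ends lay on the strand of the gene and within 1 kb of its body.

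Most proteins of this family pair a KRAB domain, near the amino end, with a row of C2H2 zinc fingers. The fingers read DNA, and the KRAB domain calls in the co-repressor TRIM28 (KAP1), which brings the histone methyltransferase SETDB1 and heterochromatin proteins. Many of these proteins silence transposable elements, and the genes have spread by tandem duplication into arrays of close relatives. The usual gene has a few short exons that encode the start of the protein and a long last exon that encodes the whole row of fingers. An end of transcription before that exon gives an RNA without finger codons.

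TIF-Seq2 reads the capped 5′ end and the polyadenylated 3′ end of the same RNA molecule as a read pair. The cells were K562, an erythroleukemia line from a patient with chronic myeloid leukemia that depends on the BCR-ABL1 kinase. They were exposed to 1 µM imatinib, an inhibitor of that kinase, for 24 h, or to the solvent DMSO, with 2 libraries in each group. The libraries held between 2263121 and 5135829 read pairs and imatinib replicate 2 was the shallowest. Of the pairs used, 94.97% to 96.63% fell in protein-coding genes. Levels are given as CPM, the read pairs of a gene after scaling to a common library size with TMM factors. All 11 erythroid markers examined had at least 4 pairs, whereas 1 of 7 markers of other blood cells and 3 of 5 epithelial and fibroblast markers did. The last 3 included the epithelial adhesion gene EPCAM with 1834 pairs, and the summed level of that list was 166 and 183 CPM in DMSO and 205 and 123 CPM in imatinib. The summed erythroid markers stood at 6166 and 5060 CPM in DMSO and at 18846 and 18307 CPM in imatinib. Of the 11, 8 were higher in imatinib (edgeR's quasi-likelihood test, Benjamini-Hochberg adjusted p under 0.05). The part of this change in the results on the zinc finger genes was not tested. In such bulk libraries fewer cells that express a gene and less RNA per cell cannot be told apart.

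The labels were checked against the coding sequences. When the canonical coding sequence of each member was translated, all 246 held at least 1 match to the C2H2 finger motif, with a median of 12 and a maximum of 36. Of 3108 fingers, 3063 (98.6%) began in the last exon, and in 240 genes all of them did. The exceptions were ZNF414, ZNF653, ZNF536, ZNF507, ZNF541 and ZNF418, in which some or all fingers lay in earlier exons.

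The sequences that carry the main result are the 40 bases that end at the most used 3′ end in 4 genes, each in an intron, taken from hg38. They are given in the direction of transcription, with the poly(A) signal AATAAA or ATTAAA in capitals where there is a match.
ZNF585A, intron 2, chr19:37165389-37165428, minus strand: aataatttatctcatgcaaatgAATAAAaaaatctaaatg
ZNF749, intron 1, chr19:57438417-57438456, plus strand: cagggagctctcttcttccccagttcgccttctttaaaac
ZNF83, intron 1, chr19:52618795-52618834, minus strand: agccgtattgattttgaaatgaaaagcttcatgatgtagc
ZNF429, intron 1, chr19:21519685-21519724, plus strand: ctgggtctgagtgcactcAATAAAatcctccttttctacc

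A further 4 sites lay inside the last exon but upstream of the stop codon. They are shown because they carried most of the pairs of their genes, and each window ends at the most used base of its site.
ZNF480, chr19:52321674-52321713, plus strand: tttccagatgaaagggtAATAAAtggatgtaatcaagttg
ZNF780A, chr19:40076116-40076155, minus strand: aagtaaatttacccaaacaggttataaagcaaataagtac
ZNF780B, chr19:40036535-40036574, minus strand: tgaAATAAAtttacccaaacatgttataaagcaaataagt
ZNF846, chr19:9758477-9758516, minus strand: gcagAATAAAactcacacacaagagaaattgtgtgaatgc

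Most members were expressed at a low level. Of 246 members, 199 (80.9%) had at least 4 read pairs over the 4 libraries, against 59.4% of all protein-coding genes and 218 of 262 zinc finger genes of the same naming elsewhere in the genome. A further 23 had 1 to 3 pairs and 24 had none, which at this depth allows up to 3 pairs, or 0.226 CPM over all pairs in genes. The number with any pair was 192 and 199 in the DMSO libraries and 206 and 187 in the imatinib libraries, and 166 members had a pair in every library. Among the expressed members the median was 51 pairs, compared with 83.5 for the expressed zinc finger genes elsewhere and 183 for all expressed protein-coding genes. The 24348 pairs of the members were 0.184% of all pairs in genes.

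A pair stands for a single molecule and its number was not divided by the length of the gene. Long cDNAs may be recovered less often, and the median canonical mRNA of the expressed members was 4056 nt, against 3512 nt for the members under 4 pairs and 3188 nt for all expressed genes. The share of members with at least 4 pairs was 83.3% for mRNAs up to 2000 nt, 76.9% up to 4000 nt, 87.7% up to 6000 nt and 78.7% above that. The part of length in the levels was not tested.

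**Figure D1:**
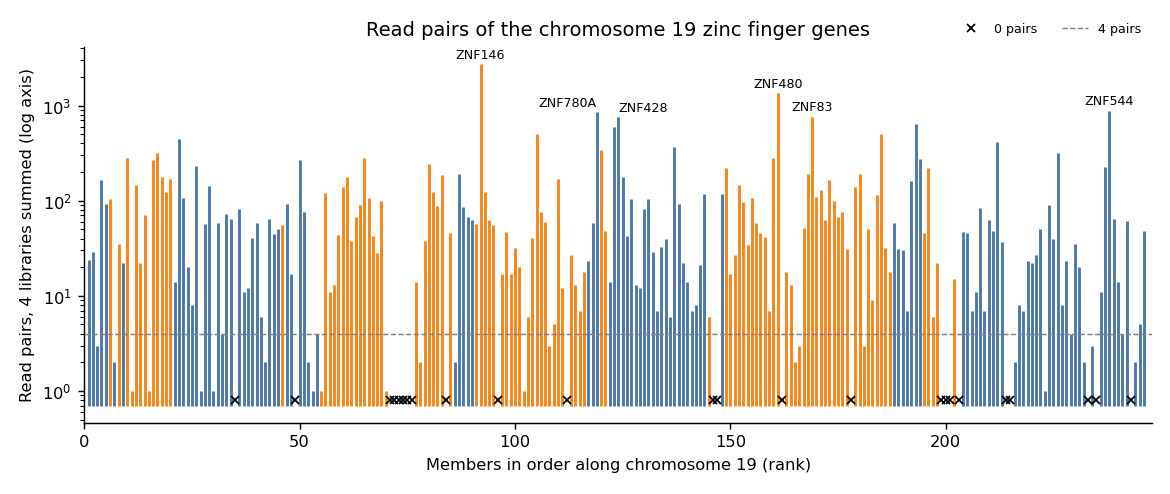
Read pairs of each member (log axis, 4 libraries summed) against its rank along chromosome 19, with neighbouring arrays in alternating colours, crosses for members with 0 pairs and a dashed line at 4 pairs. ZNF146 (2732 pairs) and ZNF480 (1357 pairs) stand highest, and the 24 crosses fall partly in runs.

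A few genes held much of the signal. The 10 members with most pairs took 39.4% of all pairs of the set. ZNF146, which encodes 10 fingers and no KRAB domain, led with 2732 pairs. Its level was 259 and 220 CPM in the DMSO libraries and 125 and 236 CPM in the imatinib libraries, and the groups overlapped. ZNF480, a KRAB zinc finger gene, followed with 122 and 106 CPM in DMSO and 87.7 and 87.0 CPM in imatinib.
ZNF544 had 87.1 and 72.6 CPM in DMSO and 45.3 and 59.6 CPM in imatinib. ZNF780A had 78.7 and 61.2 CPM in DMSO and 54.3 and 65.3 CPM in imatinib. The ranges of these 2 genes overlapped over the 4 libraries, so that their order was not set, while ZNF480 was above both in every library. The other 6 of the 10, ZNF83, ZNF428, ZNF580, ZNF576, ZNF585A and ZNF761, had between 499 and 764 pairs. Several of the most abundant members were not of the typical form: the translated ZNF428 held a single finger, ZNF580 held 3 and ZNF576 held 4.

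Members were joined into an array where less than 250 kb separated them, which gave 25 groups, 14 of them with more than 1 gene. The largest holds 43 genes from ZNF264 to ZNF446 (chr19:57191500-58481230), of which 33 had at least 4 pairs. The array from ZNF575 to ZNF180 (chr19:43525497-44500524) had at least 4 pairs for all 23 genes, with a median of 33 pairs. In the array from ZNF737 to ZNF254 (chr19:20535825-24129968) 20 of 29 genes had at least 4 pairs. Its members at 0 pairs included 6 that follow each other along the chromosome, ZNF729, ZNF98, ZNF492, ZNF99, ZNF723 and ZNF728.

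The most used starts were close to the annotation. Among the 151 members with at least 20 pairs, the most used start lay a median of 6 bp from the start of the canonical transcript, within 100 bp in 136 genes and over 1000 bp away in 10. Of all pairs of the members, 84.2% began within 500 bp of an annotated start. This share was 85.2% in the zinc finger genes elsewhere and 91.7% in the other protein-coding genes. RefSeq promoters (GRCh38.p14, 250 bases before to 50 bases after the annotated start) were matched for 200 of the 222 members with a pair. The promoter of ZNF429 is printed with the most used start in capitals, which took 89 of 279 pairs (31.9%). This gene is shown because it both ended early and was higher in imatinib.
ZNF429 promoter, chr19:21505352-21505651, plus strand: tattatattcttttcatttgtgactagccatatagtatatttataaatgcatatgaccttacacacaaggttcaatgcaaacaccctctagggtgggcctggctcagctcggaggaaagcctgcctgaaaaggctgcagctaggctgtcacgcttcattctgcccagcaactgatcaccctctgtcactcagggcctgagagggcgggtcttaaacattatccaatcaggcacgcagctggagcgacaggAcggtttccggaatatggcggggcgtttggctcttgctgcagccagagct

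Ends before the last exon of the canonical transcript were then counted. They made up 20.7% of the pairs of the members (5033 of 24348), 15.4% of the pairs of zinc finger genes elsewhere and 4.22% of the pairs of all other protein-coding genes with several exons. By library, the share in the members was 19.4% and 17.9% in DMSO and 25.4% and 19.2% in imatinib. In the other genes it was 4.30% and 4.35% in DMSO and 4.33% and 3.60% in imatinib. The members were therefore above the other genes in each of 4 libraries, by 16.3 ± 3.27 percentage points (mean ± SD, n = 4), and the exact sign-flip permutation test gave a two-sided p of 0.125, the smallest it allows with 4 libraries. Against the zinc finger genes elsewhere the difference was 5.11 ± 2.76 points (SD, n = 4), with the same exact permutation p of 0.125. Between treatments the share in the members differed by 3.61 points, with an exact permutation p of 0.667 where 0.333 is the smallest possible.

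The summed share rested on a minority of genes. The median over the 151 members with at least 20 pairs was 6%, close to the 6.70% of 179 zinc finger genes elsewhere and above the 2.35% of 9624 other genes. By library, the median of the members was above that of the other genes by 2.69 points on average (exact permutation p = 0.125, n = 4) and differed from that of the zinc finger genes elsewhere by -0.10 points (exact permutation p = 1). In 26 of the 151 members (17.2%) over 50% of pairs ended early, against 34 of 179 zinc finger genes elsewhere and 9.67% of the other genes. No early pair was found for 29 members (19.2%), against 28 of 179 and 17.3%. Of all early pairs, 60.3% came from 10 members, ZNF83, ZNF585A, ZNF761, ZNF749, ZNF429, ZNF226, ZNF627, ZNF665, ZNF544 and ZNF626, and without them the share was 10.1%. The share also rose with the length of the mRNA, from 2.10% for members up to 2000 nt to 16.7%, 25.8% and 35.2% in the bins that end at 4000 nt, 6000 nt and above. Over all protein-coding genes the same bins gave 1.51%, 5.41%, 10.5% and 14.1%. The zinc finger genes elsewhere had 16.6%, 14.1%, 26.1% and 11.7% in these bins, so that they were level with the members between 4000 and 6000 nt and had no such order. The other genes of chromosome 19 had 0.603%, 2.17%, 4.14% and 33.4%, close to the members above 6000 nt. The part of cDNA length in these shares was not tested.

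**Figure D2:**
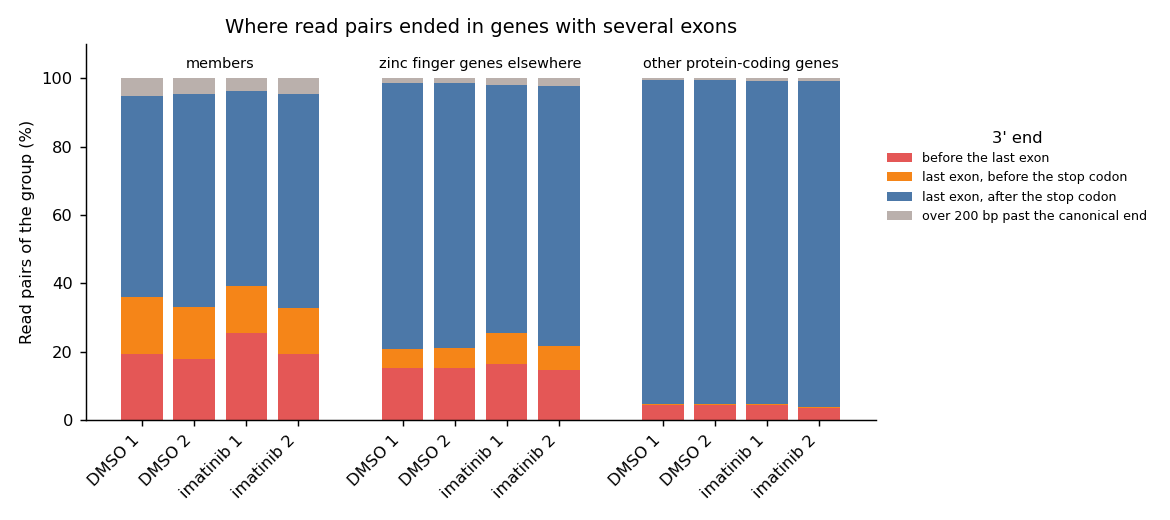
Percentage of read pairs by the place of their 3′ end (stacked bars, 1 bar per library) in the members, the zinc finger genes elsewhere and the other protein-coding genes with several exons. Ends before the last exon (red) take 17.9% to 25.4% in the members and at most 4.35% in the other genes, and ends in the last exon before the stop codon (orange) take at least 5.43% in both zinc finger groups and at most 0.281% in the other genes.

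Early ends were rarely stray starts. Of the early pairs of the members, 95.9% began within 500 bp of an annotated start of the gene, and 52.0% ended within 200 bp of an annotated transcript end. Of their pairs that ended in the last exon after the stop codon, 76.3% began within 500 bp of an annotated start. Among members with at least 20 pairs from an annotated start, the 8 with the highest early share were ZNF585A, ZNF626, ZNF599, ZNF749, ZNF665, ZNF429, ZNF611 and ZNF414. In ZNF585A, a KRAB gene with 21 fingers, all 507 pairs ended early, with 91 and 146 in DMSO and 234 and 36 in imatinib. Counting only annotated starts, this was 501 of 501 pairs (95% Wilson interval 99.2% to 100%, counting error only). No molecule that reached its last exon was therefore detected at this depth. That exon is 8067 nt long, and the part of cDNA length in this absence was not tested.

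ZNF749 had 102 early pairs and 1 later pair in DMSO replicate 1, 118 and 5 in DMSO replicate 2, 99 and 0 in imatinib replicate 1 and 90 and 2 in imatinib replicate 2. ZNF599 had 85 early pairs and 1 later pair. ZNF626 had 116 early and 4 later pairs, ZNF665 186 and 4, ZNF429 268 and 11, ZNF611 96 and 13, and ZNF414 32 and 3. In the first 6 of the 8 genes the share was above 90% in every library, while ZNF611 had 7 of 9 and ZNF414 4 of 6 pairs ending early in imatinib replicate 2. ZNF414 is also the exception to the gene form described above: 2 of its 3 fingers lie upstream of its early end.

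**Figure D3:**
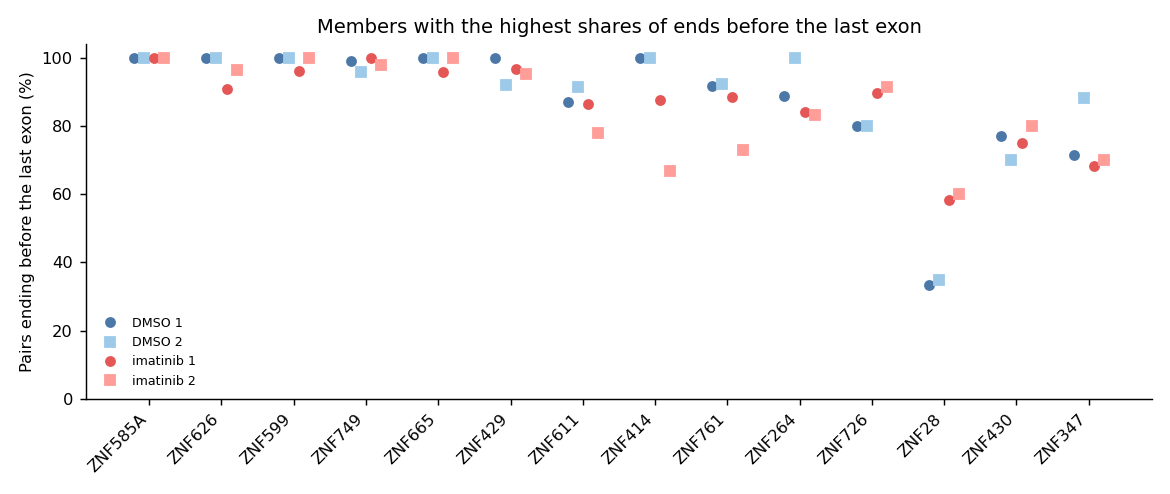
Percentage of read pairs that ended before the last exon in each library (DMSO blue, imatinib red, circles for replicate 1 and squares for replicate 2) for the 14 members with the highest share among pairs from annotated starts, in that order. ZNF585A sits at 100% in all 4 libraries, while ZNF28, with 30 early and 33 later pairs over all starts, falls below its neighbours.

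The early ends fell on discrete sites. When 3′ ends within 10 bp of each other were joined, 134 sites in 65 members had at least 4 pairs, and together they held 4380 of the 5033 early pairs. Of these sites, 113 lay in introns of the canonical transcript, 26 of them in the first intron and 63 in the last, 2 lay in earlier exons and 19 lay upstream of the canonical first exon. Only 1 site, in ZNF414, had finger codons upstream of it, so 133 sites gave RNAs without any finger of the canonical protein. An annotated transcript end lay within 200 bp of 44 sites with 2532 pairs, and the other 90 sites with 1848 pairs were further from one. There were 70 sites with a pair in every library, and ZNF544 held the most sites, 9.

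The site in intron 2 of ZNF585A had 83 and 135 pairs in DMSO and 208 and 31 in imatinib, 11783 bp before the last exon and 4 bp from an annotated end. ZNF749 ended in its first intron with 102 and 118 pairs in DMSO and 99 and 90 in imatinib, at an annotated end and without AATAAA or ATTAAA in the 40 bases. The site of ZNF83, 83 bp from an annotated end, had 57 and 79 pairs in DMSO and 183 and 43 in imatinib. Imatinib replicate 1 therefore stood apart from the other 3 libraries. ZNF83 also used the annotated end of its canonical transcript, with 16 and 31 pairs in DMSO and 31 and 14 in imatinib. This end has a poly(A) signal in its last 30 bases.
ZNF83, annotated end, chr19:52612378-52612407, minus strand: agatccactcAATAAAaaccaggcaaatgt

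ZNF429 ended in intron 1 with 39 and 43 pairs in DMSO and 109 and 55 in imatinib, 736 bp from the nearest annotated end. ZNF226 ended 250 bp before its last exon with 29 and 30 pairs in DMSO and 85 and 32 in imatinib. A site of ZNF627 lay in a transcript that starts upstream of the canonical first exon, and had 10, 19 and 9 pairs in the DMSO libraries and imatinib replicate 2 but 122 in imatinib replicate 1. This single library therefore carries the ZNF627 site.

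Close relatives shared early sites. The 40 bases at the ZNF83 site printed above were identical to those at a site in intron 3 of ZNF28 (chr19:52807874-52807913, 40 of 40), and 39 of 40 matched in ZNF320 and in ZNF468. The site in ZNF320 had 53 pairs, that in ZNF28 had 7 and that in ZNF468 had 7. The ZNF320 window is printed for comparison.
ZNF320, intron 5, chr19:52887986-52888025, minus strand: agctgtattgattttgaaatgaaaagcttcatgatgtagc
Because only uniquely mapped pairs were deposited, pairs whose ends fit several relatives equally are missing from these counts, and a split between such genes is uncertain.

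The poly(A) signal was found at fewer early than later ends, in the members and in the other genes alike. It lay within 40 bases upstream of 61.9% of the early pairs of the members, compared with 80.3% of their pairs that ended in or after the last exon. In windows of the same length 200 bases further upstream it was found for 2.13% and 7.13% of the same pairs. The other protein-coding genes had 69.9% at early ends and 87.5% at later ends, and the zinc finger genes elsewhere had 67.3% and 87.4%. In the shifted windows the other genes had 3.75% and 3.94%, and the zinc finger genes elsewhere had 16.0% and 14.5%. The later ends include those in the last exon before the stop codon, which were 14.8% of all pairs of the members and 0.238% of those of the other genes. Only the transcribed strand was searched, a match is a description and not a shown site, and ends followed by 7 or more A in 10 bases had been left out as likely internal priming.

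The rule on the last exon did not capture a further kind of early end. In the members 14.8% of pairs ended inside the last exon but before the stop codon, against 6.83% in zinc finger genes elsewhere and 0.238% in other genes. In the members this share was 16.5% and 15.2% in DMSO and 13.8% and 13.6% in imatinib. ZNF480 and ZNF780A, both among the most abundant members, held 55.2% of these pairs. Here too 3′ ends within 10 bp of each other were joined, and the distance given is that of the most used base. The ZNF480 site, 134 bp into its last exon, held 1167 of 1357 pairs, with 328 and 420 in DMSO and 277 and 142 in imatinib. It was broad: the base at 134 bp had 62 and 135 pairs in DMSO and 80 and 14 in imatinib. The base at 145 bp had 63 and 73 in DMSO and 51 and 36 in imatinib. ZNF780A ended 93 bp into its last exon in 823 of 850 pairs, with 231 and 275 pairs in DMSO and 193 and 124 in imatinib.

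Both sites lay upstream of the first finger codon, within 66 bp and 2 bp of annotated transcript ends. The 10 bases that follow the most used base held 5 A in ZNF480 and 2 A in ZNF780A. ZNF780B, the tandem neighbour of ZNF780A, ended 91 bp into its last exon in 52 of 59 pairs. ZNF846 ended 287 bp into its last exon in 140 of 171 pairs, after 1 of its 11 fingers, and ZNF101 ended 849 bp into its last exon in 61 of 92 pairs, after 7 of 9. In all, 73 such sites with at least 4 pairs were found in 48 members. Of these sites, 41 lay upstream of every finger and 31 within the row of fingers. AATAAA or ATTAAA lay in the 40 bases of 36 of the 73 sites, and 46 lay within 200 bp of an annotated transcript end.

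Counting both kinds of end together, 32.2% of all pairs of the members ended before any finger codon, 3.14% ended within the row and 64.6% ended after the last finger. The share of pairs that ended before any finger codon was 32.9% and 29.8% in DMSO and 35.8% and 29.3% in imatinib, with overlapping groups. These shares use the 3′ end alone, so a molecule that began inside or past the fingers is classed by its end.

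**Figure D4:**
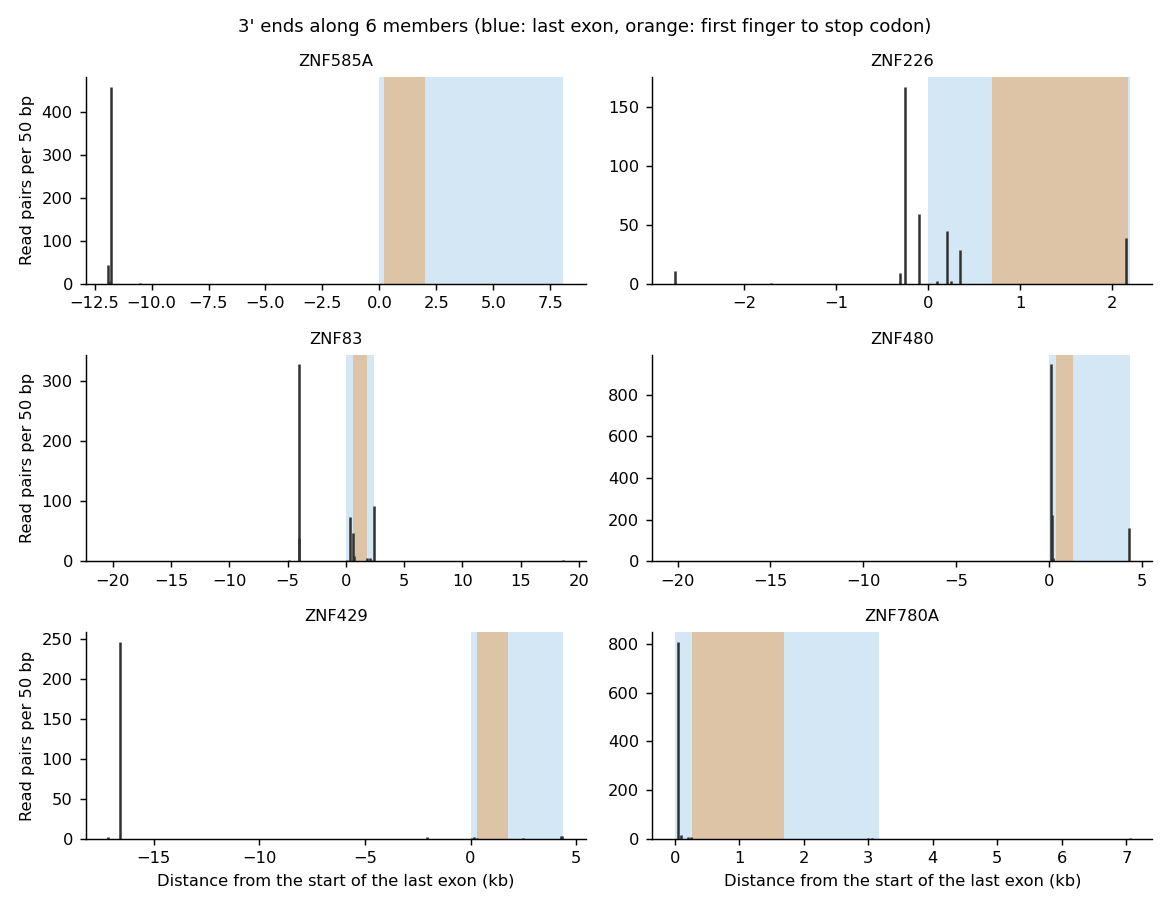
Read pairs per 50 bp (4 libraries summed) by the distance of their 3′ end from the start of the last exon in 6 members, with the last exon in blue and the stretch from the first finger to the stop codon in orange; ends over 21 kb upstream are not drawn. The tallest bar lies left of the last exon in ZNF585A, ZNF83, ZNF429 and ZNF226, and inside it but left of the fingers in ZNF480 and ZNF780A.

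Early ends were not spread evenly over the arrays. In the array from ZNF737 to ZNF254 they made up 52.1% of 1950 pairs, with 61.5% and 46.8% in DMSO and 54.0% and 47.8% in imatinib. In the array from ZNF175 to ZNF331 (chr19:51571283-53580269) the share was 34.0% of 5281 pairs, with 32.9% and 32.2% in DMSO and 38.2% and 30.7% in imatinib. The array from ZNF317 to ZNF846 (chr19:9140397-9793180) had 1.65% of 1575 pairs, between 0.954% and 2.57% per library. The lowest share of the first array was above the highest of the other 2, which is given as a description with no test.

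Read-through between a member and a neighbouring gene on the same strand was rare. There were 294 neighbouring genes with at least 1 member whose bodies did not overlap, and 7 of them (2.38%) were joined by at least 4 pairs, against 1.87% of all 18793 neighbouring genes. Of the others, 22 had 1 to 3 pairs and 265 had none. In total 83 pairs joined such neighbours, 0.138% of the pairs of the upstream genes together with them, against 0.110% over all neighbours. Where both genes were members, 65 pairs joined them, or 0.376%, and 5 of 176 such neighbours had at least 4 pairs. Their median gap was 21.1 kb, against 54.8 kb where neither was a member. At gaps under 10 kb, 1 of 48 neighbours that were both members had at least 4 pairs (2.08%), against 6.16% where neither was. The part of the gap in these shares was not tested. Where a member adjoined another gene there were 18 pairs, or 0.0419%. By library there were 10 and 35 pairs in DMSO and 29 and 9 in imatinib.

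The most frequent was ZNF587B to ZNF587, with 18 pairs (1 and 13 in DMSO, 4 and 0 in imatinib), 3620 bp apart. These 18 were 43.9% of the pairs that began in ZNF587B (95% Wilson interval 29.9% to 59.0%), and 9 of them reached the last exon of ZNF587. ZNF264 to AURKC, the gene of the meiotic kinase Aurora C, had 10 pairs (0 and 7 in DMSO, 2 and 1 in imatinib), and all 10 ended in or after the last exon of AURKC. ZNF443 to ZNF799 had 5 pairs, 4 of them in imatinib replicate 1. There were 4 pairs each for ZNF417 to ZNF814, ZNF559 to ZNF177, ZNF628 to NAT14 and ZNF780A to ZNF780B, the last over a span of 54.4 to 54.6 kb.

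No joined pair of genes passed the filter on low counts, so read-through was not tested between treatments. Without DMSO replicate 2, or without imatinib replicate 1, 3 of the 7 stayed at 4 pairs or more. Annotated read-through genes that overlap a member were left out as neighbours. The one with most pairs was ZNF816-ZNF321P, with 39 and 77 pairs in DMSO and 85 and 40 in imatinib, while ZNF559-ZNF177 had 4 pairs in all. Another overlaps ZNF586, ZNF587B and ZNF587 and had 12 pairs. Others overlap ZNF443 with ZNF799 (1 pair) and ZNF417 with ZNF814 (0 pairs). The joined pairs above were counted without regard to these genes, so the same molecules can stand in both counts. Of the pairs that began at an annotated start of a member, 1.34% ended over 1 kb past the gene, with 0.983% and 1.32% in DMSO and 1.58% and 1.38% in imatinib, compared with 0.614% for the zinc finger genes elsewhere.

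The comparison of imatinib with DMSO asked which of these genes changed when the kinase was inhibited. Of 130 members that passed the filter on low counts, 12 (9.23%) passed the test, all higher in imatinib, against 12.5% of all 9296 rows (genes or joined neighbours) in either direction (edgeR's quasi-likelihood test, adjusted p under 0.05). Upward calls were 7.51% and downward calls 5.00% of all rows, so the 12 members are near the background in number. No member was called lower, where 3 were lower at an unadjusted p under 0.05 and DESeq2 also called none. The median log2 fold change over the 130 members was 0.38, against 0.02 over all rows, 0.19 over the zinc finger genes elsewhere and 0.07 over the other genes of chromosome 19.

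Both imatinib libraries were above both DMSO libraries for 62 of the 130 members (47.7%), against a background of 29.5%. They were below them for 14 members (10.8%), against a background of 28.3% and 35 of 155 zinc finger genes elsewhere (22.6%). Members were of low level, and low rows in general leaned upward. Between 1 and 2 log2 CPM, the median was 1.13 for 19 members and 0.25 for 464 rows of all kinds. Between 2 and 3 log2 CPM, it was 0.43 for 51 members and 0.17 for 1540 rows, and between 3 and 5 log2 CPM 0.32 for 48 members and 0.06 for 3135 rows. The members were thus above rows of like level in these 3 bins. Above 5 log2 CPM it was -0.19 for 12 members and -0.06 for 4157 rows. The part of low counts in the shift was not tested.

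The largest fold among the 12 was that of ZNF223, with 0.972 and 0.434 CPM in DMSO and 4.10 and 4.66 CPM in imatinib (6.29-fold, log2 2.65 ± 0.61 SE, adjusted p = 0.021, edgeR). It rested on 3, 2, 15 and 9 pairs. ZNF404 rose from 1.62 and 0.651 CPM to 7.92 and 3.11 CPM (5.43-fold) and ZNF333 from 1.62 and 1.73 CPM to 9.56 and 4.14 CPM (4.23-fold). In these 2 genes imatinib replicate 1 was the higher library of its group, and the groups did not overlap.

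ZNF846 had the smallest adjusted p, with 6.48 and 7.16 CPM in DMSO and 20.8 and 21.8 CPM in imatinib (3.09-fold, log2 1.63 ± 0.34 SE, adjusted p = 0.016, edgeR). ZNF431, a KRAB zinc finger repressor, rose from 5.51 and 7.81 CPM to 22.9 and 20.2 CPM (3.20-fold). ZNF429 rose from 13.6 and 10.8 CPM to 34.1 and 32.1 CPM (2.72-fold). In these 3 genes the libraries of a group lay close together. The end of ZNF846 inside its finger exon had 18 and 26 pairs in DMSO and 61 and 35 in imatinib, and the intron end of ZNF429 was given above.

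ZNF426 rose 2.97-fold, from 9.07 and 11.7 CPM to 36.9 and 24.9 CPM, and ZNF665 2.78-fold, from 9.39 and 6.72 CPM to 26.2 and 17.6 CPM. ZNF726 rose from 1.62 and 4.34 CPM to 10.6 and 11.9 CPM and ZNF226 from 17.8 and 15.8 CPM to 47.8 and 31.6 CPM. The last 2 of the 12, ZNF671 and ZNF493, rose 3.15-fold and 2.67-fold. These levels include pairs that ended before the last exon. Their share by library was 95.8% to 100% in ZNF665, 80% to 91.3% in ZNF726 and 47.9% to 74.5% in ZNF226. It was 29.4% to 42.9% in ZNF493, at most 0.741% in ZNF426 and 0% in ZNF671. ZNF431, ZNF429, ZNF726 and ZNF493 all lie in the array from ZNF737 to ZNF254, which holds 29 genes, 20 of them with at least 4 pairs. Over all rows 12.5% were called, and whether calls gather in an array was not tested.

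**Figure D5:**
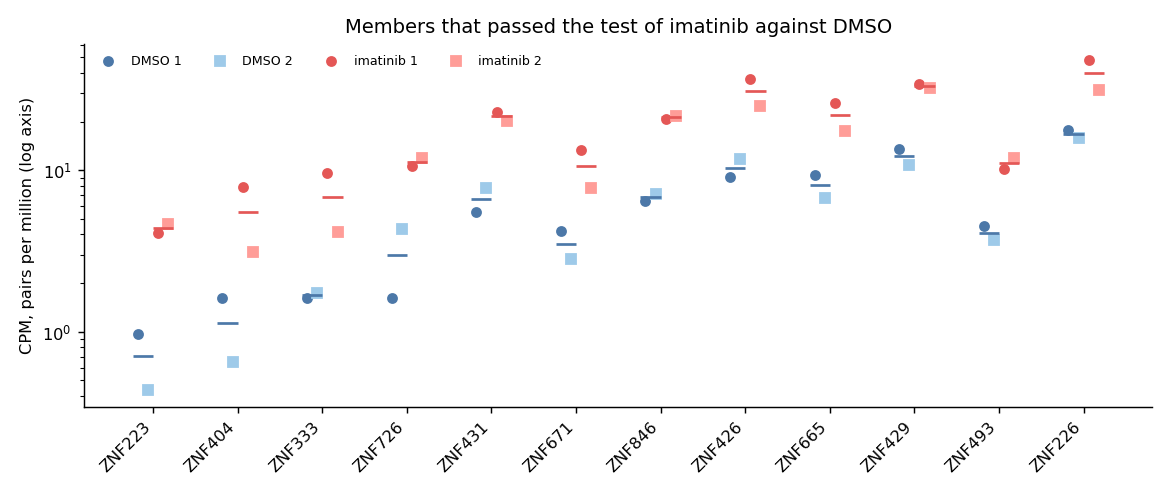
CPM (log axis) of the 12 members that passed the test of imatinib against DMSO in each library (DMSO blue, imatinib red, circles for replicate 1 and squares for replicate 2), with lines at the group means. Every imatinib point lies above both DMSO points of its gene, and the gap is widest for ZNF223.

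These calls were sensitive to the fit. So was the count over all rows, given in the last section for no filter and for left-out libraries. DESeq2 called 4 members, all higher, and 19 were called with no filter on low counts. Without DMSO replicate 1 a single member was called, without DMSO replicate 2 there were 3, and without imatinib replicate 2 there were 25, of which 22 were higher.

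The abundant members did not pass. ZNF146 was at a log2 fold change of -0.41 ± 0.33 SE (adjusted p = 0.44, edgeR) and ZNF480 at -0.39 ± 0.27. ZNF480, ZNF544, ZNF576 and ZNF761 were lower in both imatinib libraries than in both DMSO libraries, the last 3 at -0.61, -0.93 and -0.49, but did not pass. Some of these depended on a single library. Without imatinib replicate 2 the value was -0.96 for ZNF146 (adjusted p = 0.018), 1.04 for ZNF585A (adjusted p = 0.014) and 0.93 for ZNF83 (adjusted p = 0.026). Without imatinib replicate 1 it was -1.73 for ZNF576 (adjusted p = 5.90e-04), and the values are those of edgeR.

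The balance between early and later ends was tested as an interaction of end class and treatment. Of 45 members with at least 10 pairs of each class, 1 passed (2.22%), against 1.63% of 4353 genes (edgeR's quasi-likelihood test, adjusted p under 0.05). That gene was ZNF283, with 1 of 40 and 0 of 54 pairs ending early in DMSO and 10 of 50 and 11 of 33 in imatinib. The log2 interaction was 4.65 ± 1.08 SE (adjusted p = 0.015), and the level of the gene did not pass the test. Without DMSO replicate 1 or without DMSO replicate 2 no member was called, with 2 and 1 at an unadjusted p under 0.05. The median interaction was -0.19 over the 45 members and -0.49 over all genes tested, so values are to be read against that shift. Of the 71 genes called among all those tested, 4 were higher in imatinib, as ZNF283 was, and 67 were lower.

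The genes of the co-repressor pathway that serves KRAB proteins were described as a list chosen with the members. Of 22 genes listed, 21 were tested and none was called by edgeR, nor at an unadjusted p under 0.05, nor by DESeq2. The median log2 fold change was 0.06, with 11 of 21 above 0. TRIM28, the co-repressor bound by the KRAB domain, had 209 and 203 CPM in DMSO and 248 and 363 CPM in imatinib (log2 0.57, adjusted p = 0.21), and passed without imatinib replicate 1 (0.83, adjusted p = 0.036, edgeR). SETDB1, the methyltransferase it recruits, had 33.4 and 28.8 CPM against 30.3 and 35.2 CPM, and the groups overlapped. ZFP57, a KRAB zinc finger protein of imprinted loci, had 0 pairs in all 4 libraries.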

How the data were processed

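The deposited tables list the hg38 position of both ends of each TIF-Seq2 read pair with a count of pairs. Per the paper's methods and the submitters' processing notes, the authors trimmed reads with cutadapt 1.16, aligned both ends with STAR 2.5.3a, kept uniquely mapped pairs and removed PCR duplicates by molecular identifiers, so the deposited counts are of molecules. Intervals cover counting error only. Pairs under 300 bp or over 2 Mb apart, or with 7 or more A in the 10 bases after the 3′ end, were left out. Pairs that fit several genes went to the gene with the least sum of distances to an annotated transcript. Of 24955 pairs that fit the rule for a member, 24348 were assigned to members, 19529 of them with 1 candidate gene.

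Counts were tested with edgeR 4.0.16 (TMM, filterByExpr, robust quasi-likelihood, R 4.3.3) over all genes, with DESeq2 1.42.0 as an alternative, and adjusted over all rows. Shares were compared by exact permutation with scipy 1.17.1. The p-values measure the spread between these libraries. The paper calls them biological replicates and the labels give only numbers. Members and lists were chosen with earlier results of these data known. Named were the 10 members with most pairs, up to 10 called in each direction by adjusted p, the 8 with the highest early share, neighbours joined by at least 4 pairs, and TRIM28 and SETDB1. The other 2 called members, the early sites, the sites in the finger exon, the arrays and ZNF283 were chosen after their values were seen. The planned background of pairs in reversed order could not be had, since every 3′ end lies downstream of its 5′ end. The 3T-fill libraries and the PacBio gene models were not used here.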

Additional observations from a re-analysis of the deposited data

How the results depend on the processing

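The number of members called for imatinib moved from 12 to 4 with DESeq2, to 19 with no filter on low counts, and ranged from 1 to 25 when a library was left out. Over all rows the count of 1163 became 1955 with no filter, 771 with the limit of 1.5 on the log2 fold change, and 571 to 2533 when a library was left out. With the replicate number as a block, 3 members and 592 rows were called. The deviations of libraries with the same number correlated at -0.30 over 9296 rows, and with the block crossed, an alternative chosen after seeing the data, 21 members and 2133 rows were called. For the interaction, 0 to 1 members and 0 to 162 of all genes were called when a library was left out, and 29 genes with at least 20 pairs in each class. The excess of early ends was 20.5 points with the last exon taken as the most downstream exon start. Neighbours joined numbered 2 at 10 pairs, and 3 to 5 when a library was left out. The cause of these changes was not tested.

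Among 285 repeats for single genes, 219 kept direction and side of the threshold, 49 fell short of it, 7 newly passed it and 10 reversed. The reversed values, all of uncalled genes, were -0.025 (DESeq2), -0.0032 (DESeq2 size factors), -0.034 (no filter), -0.18 (without DMSO replicate 2) and -0.13 (without imatinib replicate 1) for ZNF428, 0.15 (without DMSO replicate 2) and 0.03 (without imatinib replicate 2) for ZNF580, -0.04 (without DMSO replicate 2) and -0.055 (without imatinib replicate 2) for SETDB1, and -0.70 (without imatinib replicate 1) for ZNF585A. With a library left out the values ranged from -0.18 to 0.20 for ZNF428, from -0.43 to 0.15 for ZNF580, from -0.055 to 0.19 for SETDB1 and from -0.70 to 1.04 for ZNF585A. The count of expressed members stayed between 166 and 222 in all alternatives.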
